A study of Canis lupus familiaris with 15 samples.

Results

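Matricellular proteins and elastic fibre proteins were examined as a set of 47 genes, chosen by symbol, in canine osteosarcoma cells that had left zebrafish blood vessels. Of these, 31 genes were listed in at least 1 of the 3 deposited tables, among 7699 gene symbols listed in all. The D17 table listed 18 of the 47 genes among 4412 rows, the HMPOS table listed 15 among 1189 rows, and the table of HMPOS against POS listed 22 among 5746 rows. A table holds only genes that the authors' test had called, so the level of a gene that is not listed is unknown.

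RNA was sequenced from 15 libraries of 5 groups, with 3 libraries in each group. The 3 cell lines D17, HMPOS and POS come from dog osteosarcomas, and HMPOS is a highly metastasizing sub-line of POS. Extravasated D17 and extravasated HMPOS cells are sub-lines grown in culture from clusters that had been injected into Tg(fli1a:EGFP) zebrafish embryos, had left the vessels and had been dissected out. Parental D17, parental HMPOS and parental POS cells had never been in a fish, so the passage through the embryo, the recovery and regrowth, and the extravasation itself cannot be told apart. The tables give 1 value per group in FPKM, a read count scaled for gene length and library size, with no value per library. Neither the depth nor the spread of the libraries is therefore known, no error can be given, and no difference below was tested here. In bulk RNA, fewer cells of a type and less RNA per cell cannot be told apart. The tables name the groups meta and norm, and norm was read as parental because the POS group carries it too. The ratio column of the tables, which was not used, divides norm by meta, so its sign is the reverse of the ratios given here. The article reports more downregulated than upregulated genes in extravasated cells of both lines. Here 54.2% of the genes listed for D17 and 67.0% of those for HMPOS are higher in extravasated cells. The article's counts thus go with the sign of that column. It mentions neither the column nor the names, so how its authors read them is not known. The sources used here therefore conflict and do not settle which group was which, so every higher or lower value given below for extravasated cells holds only under the reading of norm as parental, and is exchanged under the other. The direction of HMPOS against POS is given by the names of the lines, but calling its HMPOS group parental rests on the same reading.

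Matricellular proteins are secreted into the matrix without forming its load-bearing scaffold, and they modulate how cells attach to it and answer growth factors. SPARC, the thrombospondins, the CCN proteins, tenascins and periostin are the classical examples. Elastic fibres are built from an elastin core laid on microfibrils of fibrillin, with fibulins, EMILINs and microfibril-associated glycoproteins taking part in assembly. Latent TGF-beta binding proteins attach to these microfibrils and hold TGF-beta in the matrix. In bone, SPARC is also known as osteonectin and is among the most abundant proteins besides collagen.

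Of the marker genes of the set, SPARC was listed in all 3 tables, whereas MFAP5 was listed in D17 alone and went the other way from SPARC there. In D17 it was at 0.712 FPKM in extravasated against 2.20 FPKM in parental cells. The bone cell identity of the lines could be followed only through listed genes. Among osteoblast genes, COL1A1, COL1A2 and SPP1 were listed for D17, and ALPL, BGLAP, COL1A1 and IBSP for HMPOS. None of 5 endothelial genes was listed for extravasated against parental cells, and none of 5 blood cell genes was listed in any table.

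With norm read as parental, 16 of the 18 genes listed for extravasated D17 cells had a higher FPKM than in parental cells and 2 had a lower one. The genes called higher at a fold above 2 were MATN4, TNC, SMOC1, WISP2, FBLN5 and SPARC, and those called lower were MFAP5 and SPOCK1. Of all listed genes in D17, 54.2% were higher in extravasated cells at any fold, 18.3% were higher at a fold above 2 and 8.50% were lower at a fold above 2. The 6 genes higher at that fold were 33.3% of the 18 listed, and the 2 lower ones were 11.1%. With 1 FPKM added to each value, 3 members were higher and 0 lower at that fold. The share of all listed genes under that setting was not counted. The median log2 ratio (extravasated over parental) was 0.75 for the listed members and 0.39 for all listed genes. Relative to the latter median, the 16 genes were still higher and the 2 genes still lower. That median is no neutral reference, since the tables hold only genes the authors had called.

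**Figure D1:**
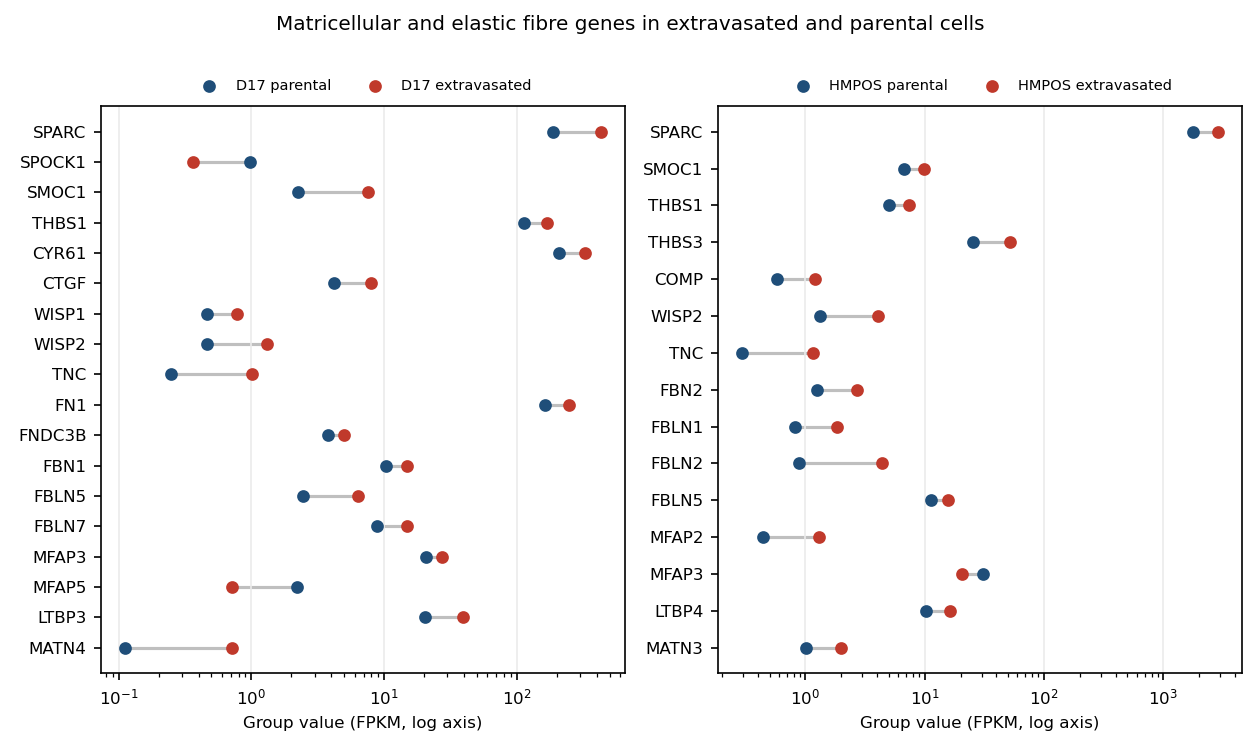
Group FPKM (log axis) of each listed member in parental (blue) and extravasated (red) cells of D17 (left, 18 genes) and HMPOS (right, 15 genes), 1 value per group and no error. With norm read as parental, extravasated values lie to the right of parental ones except for SPOCK1 and MFAP5 in D17 and MFAP3 in HMPOS.

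Of the SPARC family in D17, SPARC itself, a collagen-binding glycoprotein, was the most abundant member. It was at 433.0 FPKM in extravasated against 186.9 FPKM in parental cells, a difference of 2.32-fold. SMOC1, a SPARC relative that modulates BMP signalling, was at 7.54 and 2.25 FPKM in the same order, a difference of 3.36-fold. SPOCK1, which encodes the proteoglycan testican-1, went the opposite way, at 0.361 FPKM in extravasated against 0.983 FPKM in parental cells. The family was thus split, with 2 genes higher and 1 lower, and the lower one was below 1 FPKM in both groups.

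The CCN proteins bind integrins and heparan sulfate at the cell surface, and CYR61 and CTGF are widely used readouts of YAP and TEAD activity. All 4 CCN genes listed in D17 were higher in extravasated cells, as were 54.2% of all listed genes. CYR61 was at 324.1 FPKM in extravasated against 207.1 FPKM in parental cells, and CTGF was at 7.99 and 4.19 FPKM. WISP2, which lacks the C-terminal domain of its relatives, differed most, with 1.32 FPKM in extravasated against 0.460 FPKM in parental cells. CYR61 and CTGF differed by 1.57-fold and 1.90-fold, short of the fold of 2, and WISP2 differed by 2.87-fold. WISP1 was below 1 FPKM in both groups, at 0.778 and 0.465 FPKM.

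Thrombospondin-1 and fibronectin, which cells bind through integrins, were abundant in D17 and differed little. THBS1 was at 168.1 FPKM in extravasated against 112.9 FPKM in parental cells, and FN1 was at 249.5 and 162.6 FPKM. Both differed by about the same factor, 1.49-fold and 1.54-fold. Tenascin-C, a large glycoprotein of healing wounds and tumour stroma, was scarce, and its gene TNC was at 1.01 FPKM in extravasated against 0.249 FPKM in parental cells. Its difference of 4.05-fold rests on values at or below about 1 FPKM.

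Of the elastic fibre genes, FBLN5, whose product binds tropoelastin and is needed for fibre assembly, was at 6.34 FPKM in extravasated against 2.43 FPKM in parental D17 cells. The fibrillin gene FBN1 was at 15.0 and 10.4 FPKM, and FBLN7 was at 14.9 and 8.85 FPKM. LTBP3, which encodes a carrier of latent TGF-beta, was at 39.7 FPKM in extravasated against 20.5 FPKM in parental cells. FBLN5 differed by 2.61-fold, LTBP3 by 1.94-fold, FBLN7 by 1.69-fold and FBN1 by 1.44-fold. MFAP5, which encodes a microfibril-associated glycoprotein that binds fibrillin, was the elastic fibre gene that was lower, by 3.09-fold. MATN4, a matrilin gene, had the largest ratio of the members in D17, 6.42-fold, at 0.717 FPKM in extravasated against 0.112 FPKM in parental cells. FNDC3B and MFAP3 differed least, at 4.99 and 3.75 FPKM and at 27.3 and 20.8 FPKM. They are in the set by symbol and were not taken as genes of matrix proteins.

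Other genes that act with these proteins were taken from lists of 53 genes, chosen with earlier results of these data known. The D17 table listed 20 of them. Of these 20, 19 were higher and 1 lower in extravasated cells, 9 of them higher at a fold above 2. Over all listed genes in D17, 54.2% were higher and 18.3% were higher at that fold. ANKRD1, a target of YAP, was at 19.6 FPKM in extravasated against 2.73 FPKM in parental cells, while TEAD1 was at 15.4 and 22.0 FPKM. FSTL1, a relative of SPARC, was at 361.8 and 153.7 FPKM. The TGF-beta receptor genes TGFBR2 and TGFBR3 differed by 2.61-fold and 3.01-fold. Of the lysyl oxidases, which cross-link elastin and collagen, LOXL4 was at 7.01 and 2.94 FPKM and LOXL3 at 1.74 and 0.817 FPKM. ITGA5, a subunit of the fibronectin receptor, was at 24.2 FPKM in extravasated against 10.5 FPKM in parental cells. CD36, which encodes a thrombospondin receptor, was below 1 FPKM in both groups.

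Marker genes of other cell types were looked up beside these results, and fibroblast genes had higher values as well. All 5 on the list (DCN, LUM, PDGFRA, THY1 and DPT) were higher in extravasated D17 cells, with a summed level of 713.8 FPKM against 207.1 FPKM in parental cells. Over all listed genes in D17, 54.2% were higher. DCN made up most of the sum, at 544.4 FPKM in extravasated against 156.9 FPKM in parental cells. PDGFRA was at only 1.38 and 0.718 FPKM and THY1 at 1.98 and 0.440 FPKM. In HMPOS, 4 of the 5 were listed and higher, with a summed level of 401.9 FPKM in extravasated against 202.2 FPKM in parental cells. Over all listed genes in HMPOS, 67.0% were higher. The sum was mostly DPT, at 239.2 and 94.0 FPKM, and THY1, at 105.4 and 78.4 FPKM. The log2 ratio of THY1 was -0.16 relative to the median of all listed genes. The epithelial genes EPCAM and CDH1 were higher in extravasated D17 cells too, at a summed level of 3.19 against 0.510 FPKM, and of the 5 epithelial genes CDH1 alone was listed for HMPOS. Of the osteoblast genes, COL1A2 was at 1360 FPKM in extravasated against 493.4 FPKM in parental D17 cells and COL1A1 at 397.4 against 224.4 FPKM, and SPP1 was at 25.2 against 3.71 FPKM. Those listed for HMPOS had a summed level of 227.8 against 146.3 FPKM, with IBSP lower in extravasated cells, at 0.427 against 2.05 FPKM. No listed marker gene was at 0. The part of these genes in the results was not tested.

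Under the same reading of the group names, 14 of the 15 genes listed for extravasated HMPOS cells had a higher FPKM than in parental cells, and only MFAP3 had a lower one. The genes called higher at a fold above 2 were FBLN2, TNC, WISP2, MFAP2, FBLN1, FBN2, COMP and THBS3, and no member was lower at that fold. Of all listed genes in HMPOS, 67.0% were higher at any fold, 20.5% were higher at a fold above 2 and 4.79% were lower at a fold above 2. The 8 genes higher at that fold were 53.3% of the 15 listed. Most of them had low parental values, such as TNC at 0.294 FPKM and MFAP2 at 0.442 FPKM, whereas THBS3 was at 25.3 FPKM. With 1 FPKM added to each value, 2 members were higher at that fold. After the median of all listed genes was subtracted, 3 were. The share of all listed genes under these settings was not counted. The median log2 ratio, again extravasated over parental, was 1.03 for the listed members and 0.58 for all listed genes. Relative to the latter median, 11 of the 14 genes were still higher, and SMOC1, THBS1 and FBLN5 lay just below it.

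Fibulins, which bind elastin, fibrillin and basement membrane proteins, accounted for the largest ratio in HMPOS. FBLN2 was at 4.40 FPKM in extravasated against 0.889 FPKM in parental cells, a difference of 4.95-fold that ranked 37th of 1189 listed genes by size of fold. FBLN1 was at 1.84 and 0.813 FPKM. FBLN5 was the more abundant fibulin but differed less, at 15.8 and 11.2 FPKM. All 3 listed fibulins were thus higher, 2 of them at a fold above 2, and these 2 were below 1 FPKM in parental cells. Over all genes listed in HMPOS, 67.0% were higher and 20.5% were higher at that fold. The log2 ratio of FBLN5 was -0.09 relative to the median of all listed genes.

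FBN2, MFAP2 and LTBP4 were higher in extravasated HMPOS cells too, as were 67.0% of all genes listed in HMPOS. FBN2, the fibrillin known from developing tissue, was at 2.72 FPKM in extravasated against 1.25 FPKM in parental cells. MFAP2, which encodes the other microfibril-associated glycoprotein beside MFAP5, was at 1.30 and 0.442 FPKM, a difference of 2.95-fold. LTBP4, whose product takes part in elastic fibre assembly, was at 16.4 and 10.3 FPKM, a difference of 1.60-fold. ELN and FBN1 were not listed for HMPOS. MFAP3, which was not taken as a gene of a matrix protein, went the other way. It was at 20.4 FPKM in extravasated against 30.8 FPKM in parental HMPOS cells.

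SPARC had the highest FPKM of all 1189 genes listed in HMPOS, in both groups. It was at 2897 FPKM in extravasated against 1777 FPKM in parental cells, a difference of 1.63-fold. SMOC1 was at 9.94 and 6.72 FPKM, a difference of 1.48-fold. Relative to the median of all listed genes, the log2 ratio was 0.12 for SPARC and -0.02 for SMOC1, so the higher side of the SPARC family in HMPOS did not hold for SMOC1 after centring.

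The thrombospondins in HMPOS were higher in 3 of 3 listed genes, and 67.0% of all genes listed in HMPOS were higher. THBS3, which forms pentamers, was at 51.5 FPKM in extravasated against 25.3 FPKM in parental cells, and COMP, the pentameric thrombospondin of cartilage, was at 1.20 and 0.582 FPKM. THBS1, which forms trimers, was at 7.46 and 5.02 FPKM. The pentameric members differed by 2.04-fold and 2.06-fold and THBS1 by 1.49-fold, and the log2 ratio of THBS1 was -0.01 relative to the median of all listed genes. WISP2 was at 4.08 FPKM in extravasated against 1.31 FPKM in parental cells and was the only CCN gene listed. TNC was at 1.15 and 0.294 FPKM, and the matrilin gene MATN3, a cartilage gene, at 1.99 and 1.01 FPKM.

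**Figure D2:**
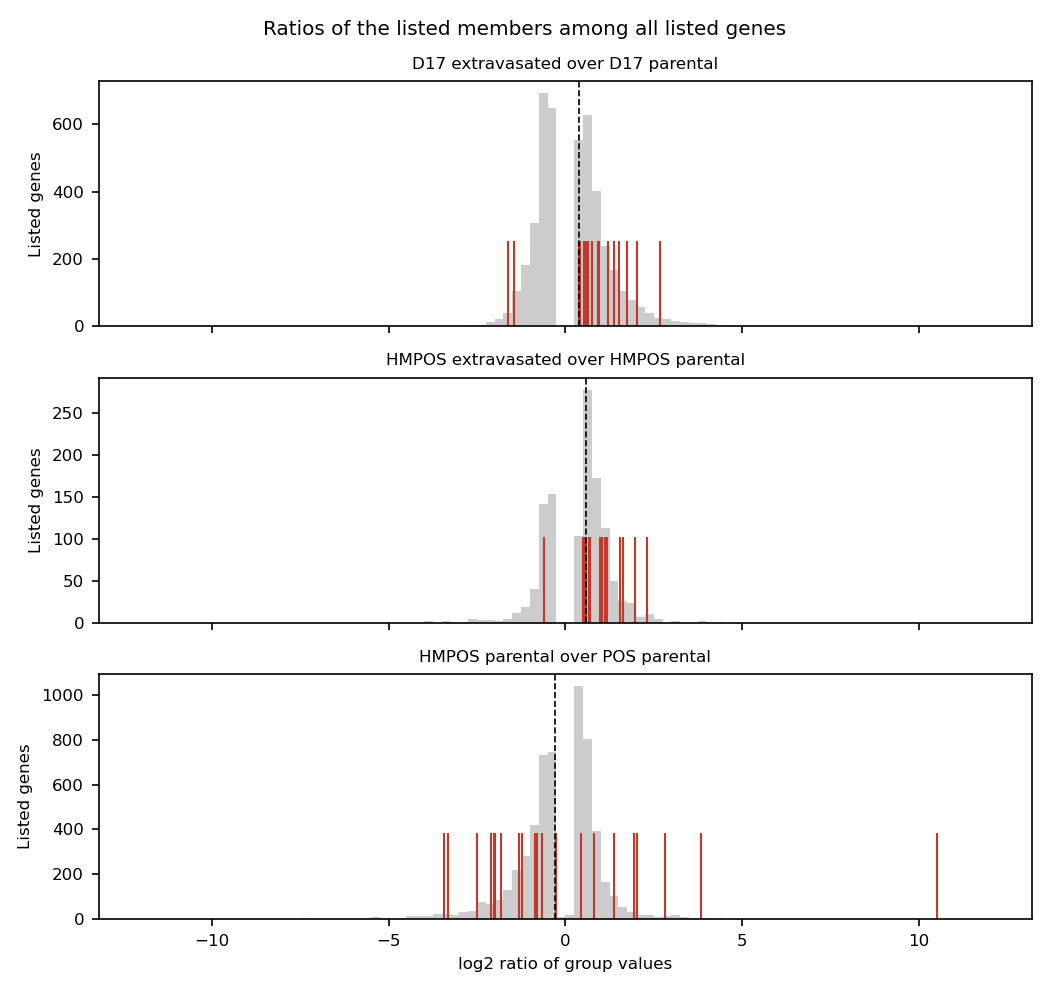
Histograms of the log2 ratio of group values over all listed genes (grey, bins of 0.25) for the 3 comparisons, with the listed members as red lines and the median of all listed genes as a dashed line; genes with a value of 0 in a group (8, 3 and 28) are not drawn. Members lie mostly to the right of 0 in both extravasation comparisons and spread to both sides for HMPOS over POS.

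Of the 53 genes on the lists of partners, the HMPOS table listed 9. Extravasated cells had the higher value for 8 of them and the lower value for 1, none at a fold above 2. Over all listed genes in HMPOS, 67.0% were higher and 20.5% were higher at that fold. LOXL2 was at 183.4 FPKM in extravasated against 120.0 FPKM in parental cells, and LOXL1 at 68.2 and 42.4 FPKM. ITGB5, a subunit of an integrin that binds the RGD motif, was at 195.5 and 116.6 FPKM. TGFB2, a ligand held by latent TGF-beta binding proteins, was the gene that was lower, at 5.51 FPKM in extravasated against 9.11 FPKM in parental cells.

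The lines were compared through the 7 members listed for both, and these comparisons share no library. SPARC, SMOC1, THBS1, WISP2, TNC and FBLN5 had the higher value in extravasated cells for D17 as well as HMPOS, 0 members were lower in both, and MFAP3 was higher in D17 and lower in HMPOS. Of the 614 genes listed for both lines, 62.2% were higher in both and 12.9% went in opposite directions. WISP2 and TNC were the members higher at a fold above 2 in both, and the share of the 614 genes that were so was not counted. Both rest on low values. TNC was at 1.01 and 0.249 FPKM in D17 and 1.15 and 0.294 FPKM in HMPOS, extravasated first. WISP2 was at 1.32 and 0.460 FPKM in D17. After the median of each table was subtracted, SPARC, WISP2 and TNC were still higher in both lines, and 4 members went in opposite directions.

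The size of the ratio was close between lines for some members and not for others. TNC differed by 4.05-fold in D17 and 3.92-fold in HMPOS, WISP2 by 2.87-fold and 3.104-fold, and THBS1 by 1.49-fold in each. SMOC1 differed by 3.36-fold in D17 and 1.48-fold in HMPOS, FBLN5 by 2.61-fold and 1.41-fold, and SPARC by 2.32-fold and 1.63-fold. Whether these ratios differ between the lines was not tested.

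**Figure D3:**
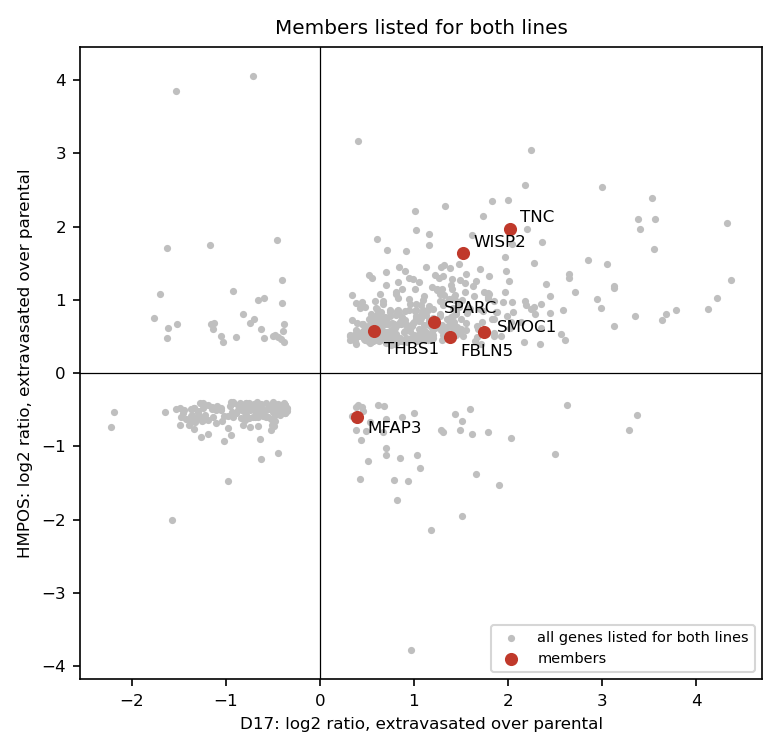
Log2 ratio of extravasated over parental cells in D17 (x axis) and HMPOS (y axis) for genes listed for both lines (grey) with a value above 0 in every group, and for the 7 members among them (red). TNC and WISP2 have log2 ratios above 1 in both lines, and MFAP3 alone lies to the right of 0 and below 0.

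The remaining listed members of either line were listed for 1 line only. MFAP5, SPOCK1, MATN4, CYR61, CTGF, WISP1, FN1, FNDC3B, FBN1, FBLN7 and LTBP3 were listed for D17, and FBLN1, FBLN2, FBN2, MFAP2, THBS3, COMP, LTBP4 and MATN3 for HMPOS. A gene that is listed for 1 line is not shown to differ between the lines.

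Parental HMPOS and parental POS cells were compared to ask how the set differs between a line and its highly metastatic derivative. Of the 22 listed genes, 8 were higher and 14 lower in HMPOS than in POS, with 6 higher and 9 lower at a fold above 2. Over all listed genes, 47.7% were higher in HMPOS at any fold, 8.49% were higher at a fold above 2 and 19.1% were lower at a fold above 2. The 6 and 9 genes were 27.3% and 40.9% of the 22 listed. The median log2 ratio of HMPOS over POS was -0.81 for the listed members and -0.31 for all listed genes. Both extremes were thrombospondin genes.

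THBS2, a trimeric thrombospondin that inhibits angiogenesis, was at 76.2 FPKM in HMPOS against 0.0523 FPKM in POS. The ratio of 1456 was the largest of the 5718 genes with a value above 0 in both groups, and its size rests on the very low value in POS. THBS1, its closest relative, went the other way, at 5.01 FPKM in HMPOS against 53.7 FPKM in POS. THBS3 was at 25.3 FPKM in HMPOS against 6.16 FPKM in POS. POS therefore had THBS1 as its most abundant listed thrombospondin, whereas HMPOS had THBS2.

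The CCN genes were lower in HMPOS in 3 of 3 listed genes, and 3003 of all 5746 listed genes were lower. WISP2 was at 1.31 FPKM in HMPOS against 13.0 FPKM in POS, CTGF at 0.329 and 1.86 FPKM, and CYR61 at 11.3 and 19.4 FPKM. In the SPARC family, SPARC was at 1775 FPKM in HMPOS against 4439 FPKM in POS, the second highest of all POS values listed. SMOC1 was higher in HMPOS, at 6.72 FPKM against 1.75 FPKM in POS.

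Elastin and the fibrillins were divided. ELN, which encodes the elastic core, was at 0.687 FPKM in HMPOS against 2.80 FPKM in POS, and FBN2 was at 1.25 and 5.31 FPKM. FBN1, the main fibrillin of adult microfibrils, was instead at 35.3 FPKM in HMPOS against 13.5 FPKM in POS. FBN1 thus exceeded FBN2 per transcript length in both lines, and more so in HMPOS. EMILIN2, which encodes a glycoprotein at the interface of elastin and microfibril, was at 14.5 FPKM in HMPOS against 2.07 FPKM in POS. Its row shares its locus with SMCHD1, so its value is uncertain where reads of the 2 genes could be split.

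Of the fibulins, FBLN1 was at 0.812 FPKM in HMPOS against 3.24 FPKM in POS, FBLN7 at 53.0 and 123.9 FPKM and FBLN5 at 11.2 and 17.7 FPKM. EFEMP1, which encodes fibulin-3, was at 117.3 and 67.3 FPKM and was the only listed fibulin higher in HMPOS. The latent TGF-beta binding protein genes were lower in HMPOS in 3 of 3 listed genes, where 3003 of all 5746 listed genes were lower. LTBP3 was at 7.41 FPKM in HMPOS against 26.2 FPKM in POS, LTBP1 at 12.2 and 21.9 FPKM, and LTBP4 at 10.3 and 18.5 FPKM. MATN4 was at 2.82 FPKM in HMPOS against 0.197 FPKM in POS. FN1 differed by 1.21-fold, with 80.2 FPKM in HMPOS against 96.9 FPKM in POS, and its log2 ratio of -0.27 became 0.03 relative to the median of all listed genes. FNDC3B was at 18.8 FPKM in HMPOS against 13.8 FPKM in POS.

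**Figure D4:**
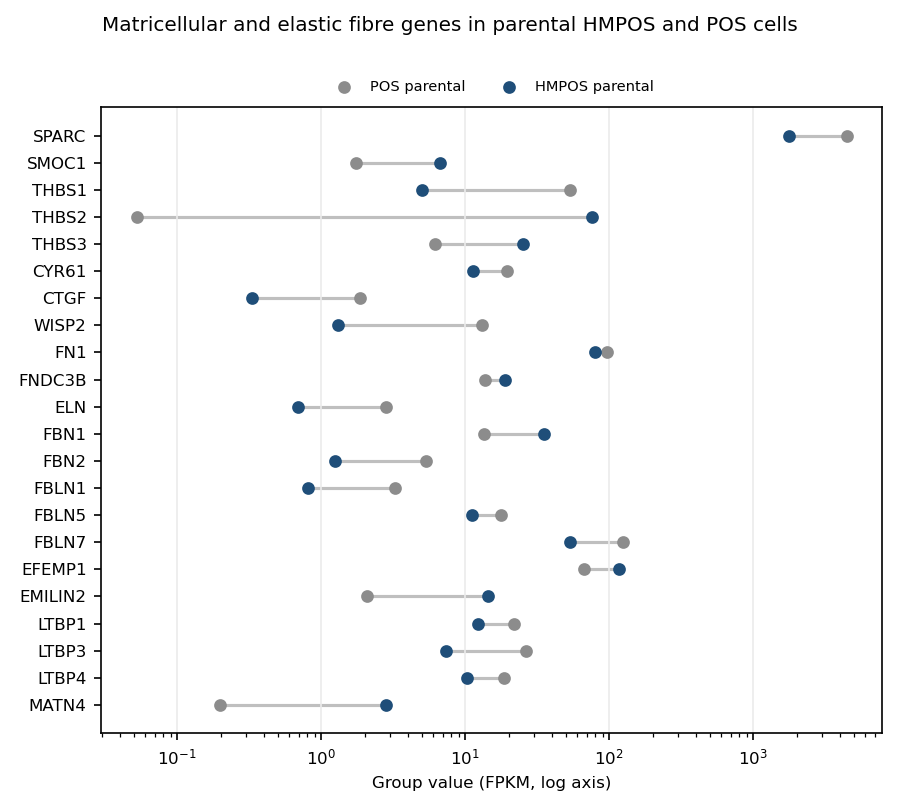
Group FPKM (log axis) of the 22 listed members in parental POS (grey) and parental HMPOS (blue) cells, 1 value per group and no error. THBS2 spans the widest distance, from 0.0523 FPKM in POS to 76.2 FPKM in HMPOS, and THBS1 and WISP2 lie far to the other side.

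Of the 53 partner genes, 25 were listed for HMPOS against POS, with 9 higher in HMPOS, 3 of them at a fold above 2, and 16 lower, 9 of them at that fold. Over all listed genes, 47.7% were higher in HMPOS, 8.49% were higher at a fold above 2 and 19.1% were lower at that fold. The ligands held by the latent binding proteins differed among themselves. TGFB2 was at 9.10 FPKM in HMPOS against 46.2 FPKM in POS, and TGFB1 at 60.2 and 119.6 FPKM, whereas TGFB3 was at 12.2 and 3.84 FPKM. The row of TGFB3 has a locus of 379.5 kb shared with 1 other listed row, so its value is uncertain. THSD4, which encodes a microfibril-associated relative of the ADAMTS proteins, was at 3.76 and 0.453 FPKM, and EMILIN3 at 3.32 and 8.92 FPKM. Fibroblast genes were lower in HMPOS in 4 of 5, with a summed level of 253.9 FPKM in HMPOS against 655.0 FPKM in POS. DPT was at 93.95 against 321.2 FPKM, and DCN, the gene that was higher, at 4.68 against 2.52 FPKM. The osteoblast gene BGLAP was at 27.3 FPKM in HMPOS against 676.3 FPKM in POS. COL1A1 was at 75.9 against 213.2 FPKM and SPP1 at 1.73 against 13.8 FPKM. SP7, a transcription factor of osteoblasts, was instead higher in HMPOS, at 54.5 against 41.7 FPKM. Their part in the results was not tested.

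The 2 tables that hold HMPOS share the parental HMPOS libraries, so their ratios are not independent and are given side by side only. The parental values of HMPOS in these tables differed by a median of 0.00135 on the log2 scale over 907 genes, whereas the extravasated values of the first differed from the parental values of the second by 0.698. Levels set across the tables come from separate normalizations. For the 9 members listed in both, the level in extravasated HMPOS cells lay between those of parental HMPOS and POS cells in 7, which were SPARC, THBS1, WISP2, FBN2, FBLN1, FBLN5 and LTBP4. WISP2, for example, was at 13.0 FPKM in POS, 1.31 FPKM in parental HMPOS and 4.08 FPKM in extravasated HMPOS cells. LTBP4 was at 18.5, 10.3 and 16.4 FPKM, and FBLN5 at 17.7, 11.2 and 15.8 FPKM, in the same order. SMOC1 and THBS3 were higher in parental HMPOS than in POS and higher again in extravasated HMPOS cells, with THBS3 at 6.16, 25.3 and 51.5 FPKM. The share of all genes listed in both HMPOS comparisons that had such an intermediate level was not counted. Of all listed genes, 67.0% were higher in extravasated HMPOS cells, and 3003 of 5746 were lower in HMPOS than in POS. The 7 members are therefore not shown to stand apart from other genes.

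**Figure D5:**
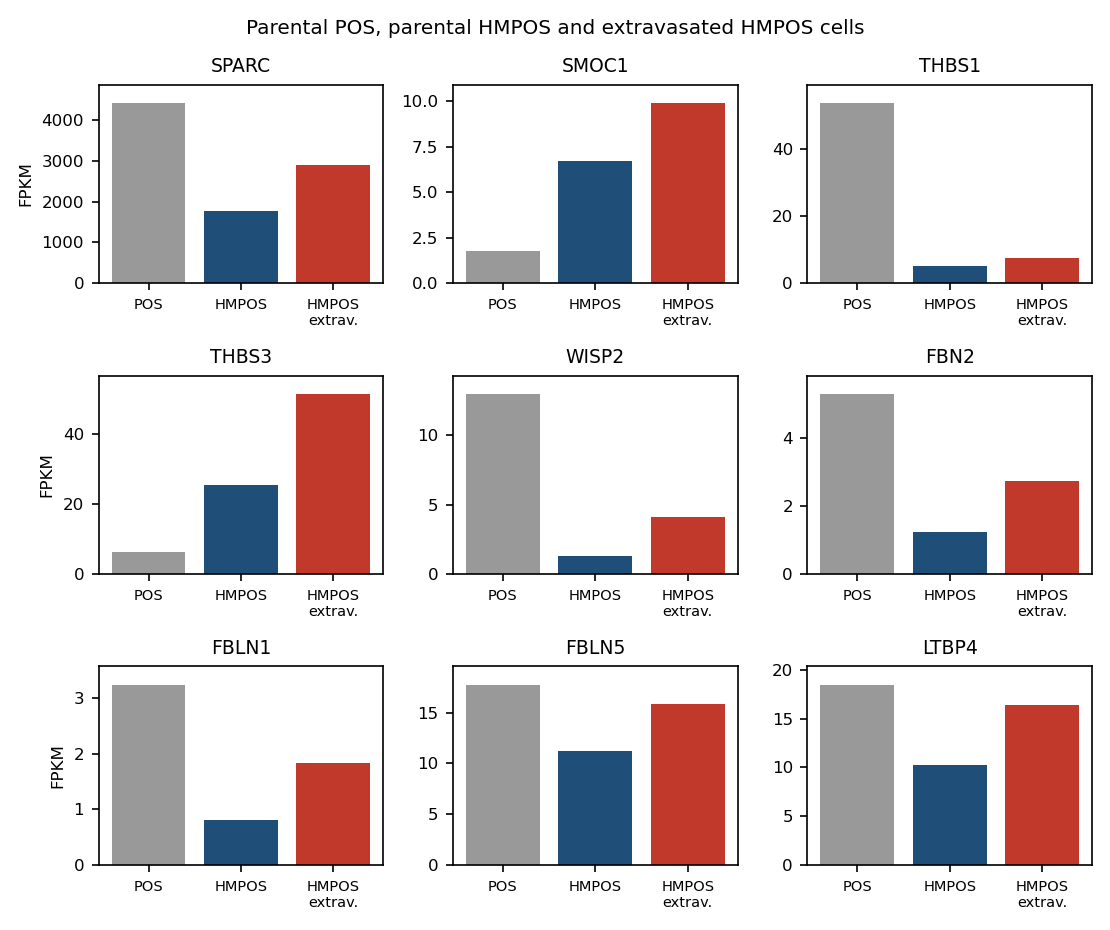
Group FPKM (linear axes from 0, 1 scale per gene) of the 9 members listed in both HMPOS tables, in parental POS (grey), parental HMPOS (blue) and extravasated HMPOS (red) cells, 1 value per group and no error. In 7 genes the red bar lies between the blue and the grey bar, and in SMOC1 and THBS3 it is the tallest.

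The 31 listed members lie on 17 chromosomes, and the closest neighbours among them are WISP2 and MATN4, 0.426 Mb apart on chromosome 24. Positions are those of the tables, on CanFam3.1 by the submitters' processing notes, and whether the first base counts from 0 is not given in the sources used here. SPARC (ENSCAFG00000017855) is listed on chromosome 4 from 57632669 to 57716883 and MFAP5 (ENSCAFG00000013892) on chromosome 27 from 37028628 to 37042713. TNC (ENSCAFG00000003426) is on chromosome 11 from 69077477 to 69169707, WISP2 (ENSCAFG00000009519) on chromosome 24 from 32162032 to 32174638, and FBLN2 (ENSCAFG00000004406) on chromosome 20 from 3874895 to 3936083. THBS2 (ENSCAFG00000000874) is on chromosome 1 from 56400873 to 56427286. A listed locus can take in neighbouring transcripts, as for CTGF, whose locus of 124.0 kb is far wider than this compact gene, and for LTBP3, which shares its locus with 3 short RNA features in the table of HMPOS against POS. The values are for whole genes, so exons, introns and isoforms cannot be told apart.

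The 16 members listed in no table were SPARCL1, SPOCK2, SMOC2, THBS4, NOV, TNXB, POSTN, TGFBI, EFEMP2, EMILIN1, MFAP1, MFAP4, LTBP2, MATN2, MGP and ECM1. Of the other members, 12 were listed in 1 table, 14 in 2 and 5 in all 3, the last being SPARC, SMOC1, THBS1, WISP2 and FBLN5.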

How the data were processed

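The authors deposited, for each of 3 comparisons, a table of group expression values in FPKM with 1 value per group over its 3 libraries. The submitters' processing notes name Trimmomatic 0.38, TopHat2, Cufflinks and Cuffdiff on CanFam3.1, whereas the article describes STAR, voom and limma; the tables have the columns of Cuffdiff. Every row is marked significant, and the authors' fold changes, test statistics, p-values and q-values were not used. Columns of single libraries numbered 0.

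Rows were matched by gene symbol, and log2 ratios were computed from the group FPKM (Python 3.11.15, numpy 2.4.6, pandas 2.3.3, matplotlib 3.10.9). A gene was called at a fold above 2, the fold of the article's methods. The counting was tested on simulated group values with known folds and no noise, which checks the arithmetic alone and not how reliable a call is. Members, lists and tests were chosen with earlier results of these data known. Members above that fold with at least 1 FPKM in a group were to be named with both values, and SPARC and MFAP5 always. Of the partner lists, the largest folds were to be named, at most 4 a list. This was not done for every partner list in every comparison. Without values per library no test was possible. Alternatives were a fold of 1.5, a minimum of 1 FPKM, pseudocounts of 1 and 0.1, centring, 1 row per symbol, and leaving out MFAP1, MFAP3 and FNDC3B. The genes left out are in the set by symbol and were not taken as genes of matrix proteins. 1 marker gene is not reported here.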

Additional observations from a re-analysis of the deposited data

Results flagged for a closer look

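MFAP3 differed in direction between the lines, with a log2 ratio of extravasated over parental cells of 0.39 in D17 and -0.59 in HMPOS. It is in the set by symbol and was not taken as a gene of a matrix protein. The difference between the lines was not tested, since each group has 1 value. With the group names read the other way both signs are exchanged, and the directions still differ.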

How the results depend on the processing

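A call at a fold above 1.5 gave 12 members higher in D17, and 1 lower in HMPOS in place of 0. With a minimum of 1 FPKM, 1 member was called lower in D17. A pseudocount of 1 left 3 members higher and 0 lower in D17 and 2 higher in HMPOS. TNC and WISP2 were not among the 3 in D17. Centring left 3 higher and 1 lower in HMPOS. Members higher in both lines were 3 at a fold of 1.5 and 3 after centring, and members in opposite directions were 0 at a fold of 1.5, 4 after centring and 0 without MFAP1, MFAP3 and FNDC3B. The median log2 ratio of the listed members in D17 was 0.76 with a minimum of 1 FPKM, 0.64 with a pseudocount of 1, 0.36 after centring and 0.84 without those 3 genes. In HMPOS it was 0.65 with a pseudocount of 1, 0.44 after centring and 1.03 without those genes. For HMPOS against POS it was -0.76, -0.51 and -0.84 in the same order. Of 48 alternatives for counts, 13 moved the count by over 1.5 times, none of them for HMPOS against POS.

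SPARC kept its direction in each comparison under each alternative, none of which exchanged the group names, and MFAP5 in D17 did so with log2 ratios from -2.01 to -0.90. No paired analysis was possible because only pooled group values were deposited, and for the same reason no replicate could be left out. The unknown depth limits most the 3 members below 1 FPKM in both groups in D17.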
